A study of Mus musculus with 6 samples.

Results

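The genes described here encode the proteins of the cytosolic ribosome, measured by RNA sequencing in mouse liver. They were chosen by name from the deposited count table: protein-coding genes in the GENCODE M21 annotation whose symbols begin with Rpl or Rps and a digit, together with Rplp0, Rplp1, Rplp2 and Rpsa, leaving out the Rps6k kinases. This rule found 92 genes of the 54532 entries with an Ensembl identifier. Of these, 46 encode core proteins of the large (60S) subunit and 31 encode core proteins of the small (40S) subunit. The other 15 are close copies or paralogs of a core protein, with the exception of Rps19bp1, whose product binds Rps19 and is not itself a ribosomal protein. A filter on low counts left 86 members among 12795 tested genes. All 77 core members passed it, and the 6 that did not were Rpl10l, Rpl36-ps4, Rpl36a-ps1, Rpl39l, Rpl3l and Rpl9-ps1, which held few or no counts.

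The libraries came from whole liver of wild-type C57BL/6J male mice. By the study's methods all mice were 8 weeks old at the start, while the sample labels mention 4 weeks of age, and they ate a high-fat diet (HFD) for 4 weeks and then for 4 more weeks. The HFD group (n = 3) received the diet alone, and the HFD+Allantoin-H group (n = 3) also received allantoin, the product of uric acid oxidation by uricase, in the drinking water at 0.3 mg/mL during the last 4 weeks. The dose of these 3 libraries was taken from the study's methods, as the sample labels give only the treatment. The comparison asks how liver transcripts differ when allantoin is added to the diet. Neither group ate a chow diet, so every value is from a liver under high-fat feeding. Each library is treated as 1 mouse, and p-values measure the spread between these 6 libraries. In whole liver, fewer cells of a type and less RNA per cell cannot be told apart.

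The ribosome of the cytosol translates nearly all messenger RNAs of the cell. Its large subunit holds the peptidyl transferase centre and the exit tunnel, and its small subunit holds the decoding site. Ribosomal protein genes are transcribed at high rates, and their messenger RNAs begin with a run of pyrimidines, the 5′ terminal oligopyrimidine (TOP) tract, through which LARP1 and the kinase complex mTORC1 control their translation and stability. The subunits are built in the nucleolus from equal numbers of most of these proteins, and in liver their output follows feeding and growth. Most of the genes are short and most have processed pseudogenes elsewhere in the genome.

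A library stood apart in its markers. HFD replicate 2 held the adipocyte genes Adipoq, Plin1, Retn and Lep at 51.4, 49.2, 19.8 and 11.4 CPM (counts scaled to library size), and the highest value of these genes in the other 5 libraries was 0.118 CPM. It was also the library with the highest summed level of the ribosomal proteins. The part of adipose tissue RNA in the results was not tested. Without this library 29 members were called lower and 3 higher (adjusted p under 0.05 in edgeR), against 12.5% and 9.83% of all tested genes, and median log2 fold changes of HFD+Allantoin-H over HFD were -0.45 over the members, -0.47 in the large subunit and -0.25 in the small subunit.

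Most of the members that changed were lower with allantoin. edgeR's quasi-likelihood test with Benjamini-Hochberg adjustment over all tested genes called 39 of the 86 tested members lower and 3 higher, with 0.05 as the limit on the adjusted p, and 44 did not pass. Among all tested genes 13% were called lower and 11.3% higher. The median log2 fold change of HFD+Allantoin-H over HFD was -0.50 over the tested members and -0.03 over all tested genes. The sign of the difference was negative in 67 members and positive in 19. In 47 members the highest HFD+Allantoin-H library lay below the lowest HFD library, a pattern that 21.9% of all tested genes showed, and in 6 members the groups were separated the other way, against 22.4% of all tested genes. The count called lower depended on single libraries: it was 16 without HFD+Allantoin-H replicate 5 and 25 without either replicate 4 or replicate 6 of that group, while 4.27%, 5.29% and 6.29% of all tested genes were then called lower. The count called higher was 0 without replicate 4, 1 without replicate 5 and 2 without replicate 6 of HFD+Allantoin-H. It was 5 without HFD replicate 3, where Rpl41 and Rps3 joined the 3. In the same order, 4.51%, 3.48%, 5.31% and 13.4% of all tested genes were then called higher.

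**Figure D1:**
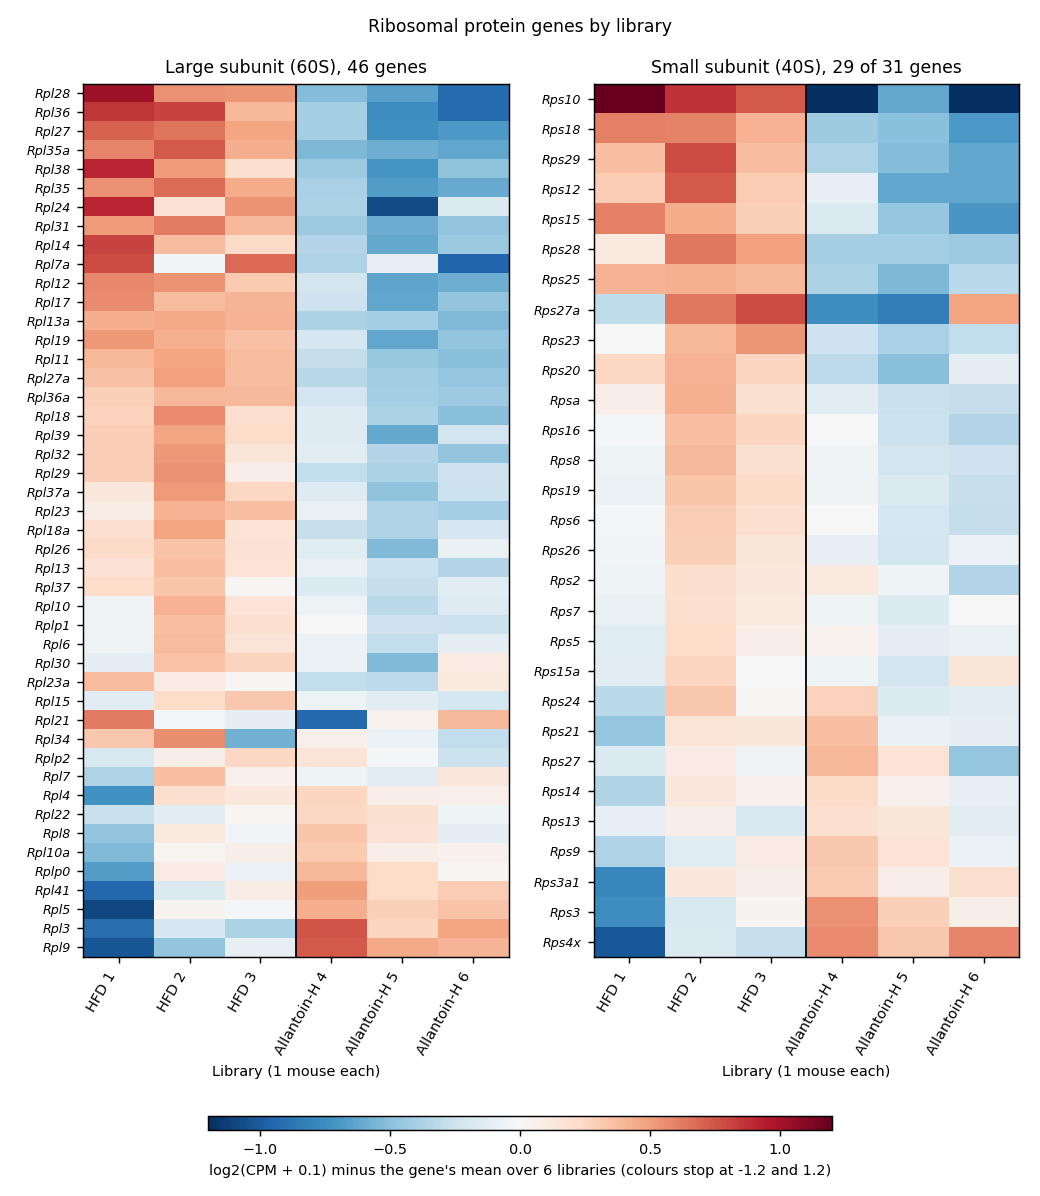
Level of 75 of the 77 core ribosomal protein genes in each of the 6 libraries, as log2(CPM + 0.1) minus the gene's mean over the libraries, with genes sorted by fold change within each subunit and the line separating the 3 HFD from the 3 HFD+Allantoin-H libraries. Rows at the top of each panel are high in all HFD libraries, and in the bottom rows, ending with Rpl9 and Rps4x, HFD replicate 1 is the lowest library.

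These differences are relative to the rest of the library, and the scaling set their direction for part of the members. The 13 protein-coding genes of mitochondrial DNA were all called lower with allantoin, with a median log2 fold change of -2.01. Genes encoded by mitochondrial DNA took 36.5%, 20.2% and 17.9% of all counts in the HFD libraries and 7.52%, 6.92% and 11.4% in the HFD+Allantoin-H libraries. As a share of all counts, the members took 0.992%, 1.40% and 1.35% in HFD and 1.46%, 1.23% and 1.21% in HFD+Allantoin-H. These shares overlapped, with means of 1.25% ± 0.225 and 1.30% ± 0.136 (SD, n = 3 each) and p = 0.8 in a two-sided exact permutation test over libraries. After TMM scaling, which sets libraries to a common level over most genes, the summed level of the members was 13149, 15680 and 14253 CPM in HFD and 12214, 10635 and 10825 CPM in HFD+Allantoin-H. All 3 HFD+Allantoin-H sums were then below all HFD sums, with a ratio of means of 0.782 and an exact permutation p of 0.1, the smallest that 3 against 3 libraries can give. With scaling by library size alone, 12 members were called lower and 6 higher, where 5.27% of all tested genes were called lower and 24.7% higher, and the median of all tested genes moved to 0.38 while that of the members was -0.08, so the members remained lower relative to the other genes. The part of the mitochondrial share in these values was not tested. Leaving the mitochondrial genes out before TMM gave 39 members called lower, all of them among the 39 above.

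**Figure D2:**
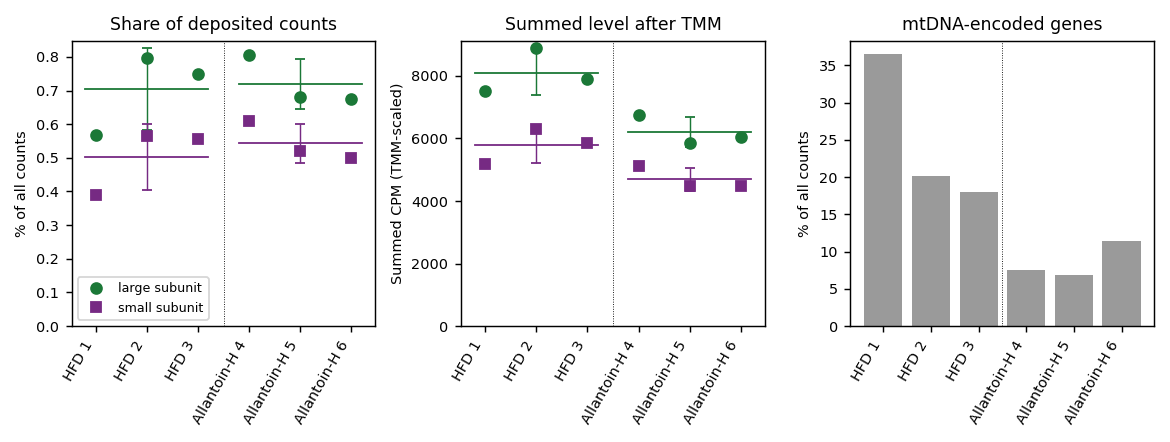
Core ribosomal protein genes of each subunit as a percentage of all counts (left) and as summed TMM-scaled CPM (centre), and genes encoded by mitochondrial DNA as a percentage of all counts (right), in each of the 6 libraries. Horizontal lines are group means and bars are SD (n = 3); the shares at left overlap between groups, the sums at centre do not, and the mitochondrial share is highest in HFD replicate 1 at 36.5%.

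The large subunit held the greater part of the calls. Of its 46 core members, 24 were called lower and 2 higher, with a median log2 fold change of -0.57. Of the 31 core members of the small subunit, 11 were called lower and 1 higher, with a median of -0.33. The summed level in HFD+Allantoin-H was 0.767 of that in HFD for the large subunit and 0.812 for the small subunit, each with an exact permutation p of 0.1. The ratio of the large to the small subunit sum was 1.45, 1.41 and 1.35 in HFD and 1.32, 1.30 and 1.35 in HFD+Allantoin-H, so the groups met at HFD replicate 3 and HFD+Allantoin-H replicate 6. The subunits were not separated by a test. For the small subunit, the median deviation of its genes from their means was -0.05 in HFD replicate 1 and -0.05 in HFD+Allantoin-H replicate 4, so those libraries did not differ in this measure.

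**Figure D3:**
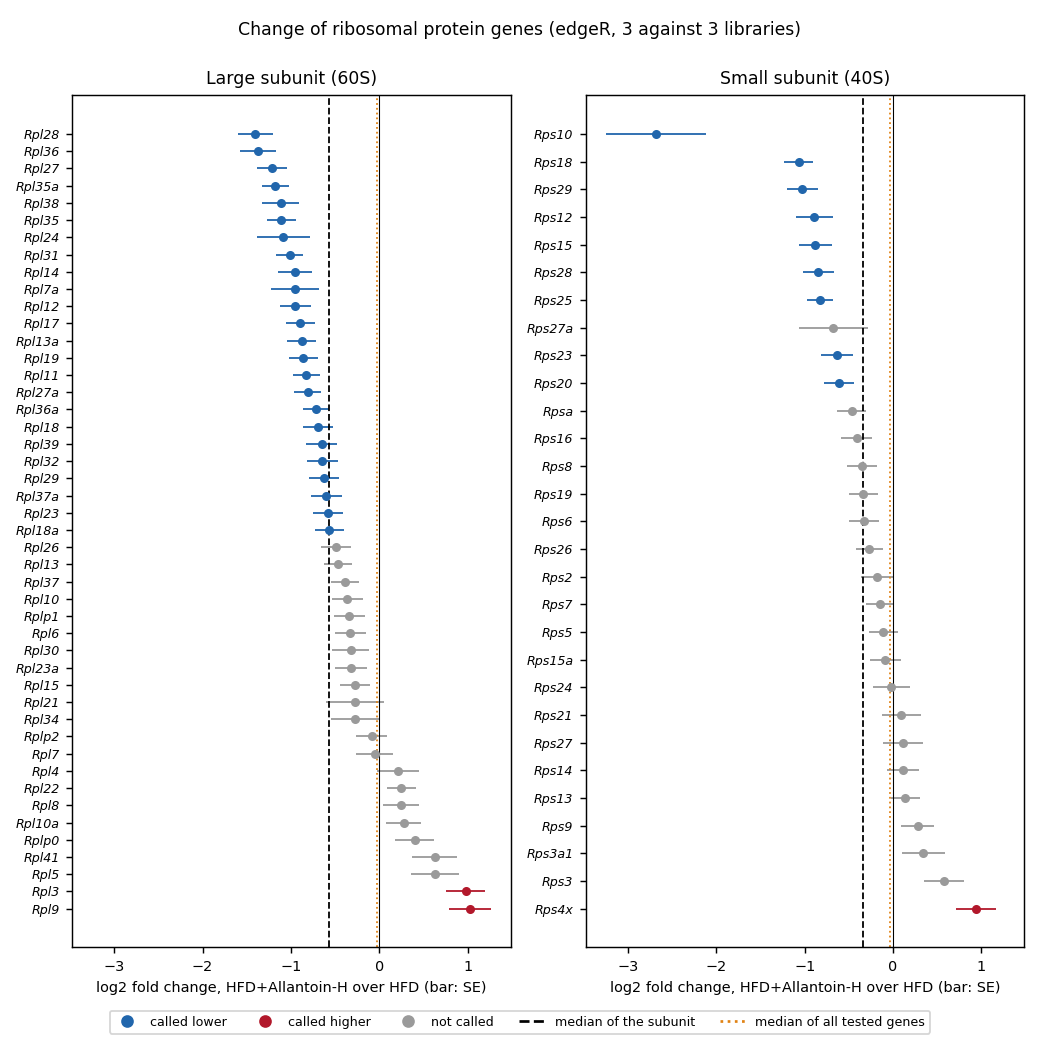
Log2 fold change of 75 of the 77 core ribosomal protein genes, HFD+Allantoin-H over HFD, with bars of 1 SE from the edgeR fit, and the subunit's median (dashed) and the median of all tested genes (dotted, -0.03). Calls lower (blue) fill the upper part of both panels, the large subunit's median lies at -0.57 and the small subunit's at -0.33, and 3 genes were called higher (red).

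Among large subunit genes, Rpl35a had the smallest p. Rpl35a, whose human counterpart is mutated in Diamond-Blackfan anaemia, lies on chromosome 16 at 33056453-33060189 on the plus strand of GRCm38. It measured 150.9, 167.2 and 135.9 CPM in HFD and 69.1, 66.7 and 65.1 CPM in HFD+Allantoin-H. Every HFD library was above every HFD+Allantoin-H library, and the gene fell by 1.18 on the log2 scale (SE 0.16, adjusted p = 0.0034), or by 55.7%. Rpl28 (chromosome 7, 4792874-4795066, plus strand), a large subunit protein, measured 330.0, 238.0 and 236.2 CPM in HFD and 113.8, 104.1 and 85.7 CPM in HFD+Allantoin-H. It fell by 1.41 on the log2 scale (SE 0.20, adjusted p = 0.0039), with HFD replicate 1 the highest library. Rpl36 measured 162.3, 157.6 and 118.1 CPM against 68.1, 53.4 and 47.4 CPM. Its groups did not overlap, and its log2 fold change was -1.38 (SE 0.20, adjusted p = 0.0040).

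Of the other large subunit genes named by their p, Rpl31, at the exit of the tunnel through which nascent chains leave, measured 220.5, 237.4 and 203.2 CPM in HFD and 114.4, 102.3 and 111.2 CPM in HFD+Allantoin-H, which gave a log2 fold change of -1.01 (SE 0.15, adjusted p = 0.0041). Rpl35, also at the tunnel exit, measured 148.4, 161.2 and 138.7 CPM against 77.6, 63.7 and 66.7 CPM, a log2 fold change of -1.11 (SE 0.16, adjusted p = 0.0040). Rpl17, which reaches into the tunnel, measured 95.5, 84.3 and 85.5 CPM against 54.2, 42.0 and 46.4 CPM, a log2 fold change of -0.90 (SE 0.16, adjusted p = 0.0072). In these genes every HFD library lay above every HFD+Allantoin-H library. Rpl27 measured 249.7, 239.0 and 211.9 CPM against 115.5, 91.7 and 94.96 CPM and fell by 1.21 on the log2 scale (SE 0.17, adjusted p = 0.0036). Rpl27a measured 258.6, 285.7 and 261.8 CPM against 160.4, 151.7 and 147.1 CPM and fell by 0.81 on the log2 scale (SE 0.15, adjusted p = 0.0073). For Rpl17 and Rpl27a the call was lost with scaling by library size alone (adjusted p = 0.098 and 0.17), and for Rpl17 also without HFD+Allantoin-H replicate 5 (adjusted p = 0.050). For Rpl36 it was lost once smooth trends with transcript length and GC content were taken out (log2 fold change -0.42, adjusted p = 0.062).

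In the small subunit the genes called lower included proteins of the head of the 40S particle. Rps18 (chromosome 17, 33951999-33956001, minus strand), which contacts the large subunit from the head, measured 453.1, 450.6 and 398.1 CPM in HFD and 222.9, 211.5 and 185.7 CPM in HFD+Allantoin-H. Its log2 fold change was -1.07 (SE 0.16, adjusted p = 0.0040). Rps29 measured 36.9, 49.6 and 37.3 CPM against 22.1, 20.0 and 18.6 CPM, a log2 fold change of -1.03 (SE 0.18, adjusted p = 0.0060). These genes were separated between groups with no overlap.

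Rps25, a protein needed for initiation at several viral internal ribosome entry sites, measured 314.5, 315.7 and 310.2 CPM against 180.7, 162.2 and 187.5 CPM. It fell by 0.83 on the log2 scale (SE 0.15, adjusted p = 0.0070). Rps15, a protein of the head, measured 242.5, 216.8 and 194.6 CPM against 141.2, 115.3 and 98.5 CPM, a log2 fold change of -0.88 (SE 0.19, adjusted p = 0.011). Rps28 measured 25.3, 36.2 and 32.9 CPM against 17.7, 17.6 and 17.3 CPM, a log2 fold change of -0.84 (SE 0.18, adjusted p = 0.011). All groups were again apart. The call of Rps18 held under every alternative run, and those of these genes did not. With the trends in length and GC content taken out, adjusted p-values were 0.12 for Rps29, 0.55 for Rps15 and 0.47 for Rps28, and with scaling by library size alone that of Rps25 was 0.14. Leaving out a library ended the call of Rps28 (HFD+Allantoin-H replicate 4, 5 or 6, adjusted p = 0.054, 0.059 and 0.0502), of Rps15 (replicate 5 or 6, 0.063 and 0.051) and of Rps25 (replicate 5, 0.052).

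Rps10, a protein of the small subunit head, had the most negative fold change of the tested members and the lowest level per kb of the core members. It lies on chromosome 17 at 27630418-27636669 on the minus strand and measured 6.44, 2.67 and 2.42 CPM in HFD and 0.513, 0.887 and 0.338 CPM in HFD+Allantoin-H. The groups did not overlap, and the log2 fold change was -2.68 (SE 0.56, adjusted p = 0.011). Its 2 matched pseudogenes held far more counts than the gene itself, at 19.0, 27.3 and 26.9 CPM in HFD and 34.0, 25.2 and 23.4 CPM in HFD+Allantoin-H. With those counts added, the log2 fold change was -0.01 (adjusted p = 0.97). As the pseudogenes made up most of that sum, it cannot show whether Rps10 itself changed. The call was also lost without HFD+Allantoin-H replicate 4 (adjusted p = 0.054).

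The 3 members called higher were Rpl3, Rpl9 and Rps4x. Rpl3 (chromosome 15, 80077791-80091868, minus strand), which reaches toward the peptidyl transferase centre, measured 73.8, 120.5 and 106.3 CPM in HFD and 234.0, 165.8 and 192.2 CPM in HFD+Allantoin-H. Rpl9 (chromosome 5, 65388364-65391444, minus strand), at the base of the stalk, measured 39.0, 57.1 and 74.2 CPM against 132.0, 108.7 and 105.5 CPM. Rps4x (X chromosome, 102184941-102189394, minus strand), the X-linked small subunit protein S4, measured 83.1, 148.6 and 138.8 CPM against 248.9, 210.1 and 252.0 CPM. In each gene HFD replicate 1 was the lowest library and the groups did not overlap. The log2 fold changes were 0.98 for Rpl3 (SE 0.22, adjusted p = 0.015), 1.02 for Rpl9 (SE 0.24, adjusted p = 0.016) and 0.94 for Rps4x (SE 0.23, adjusted p = 0.020). All 3 calls were lost without HFD+Allantoin-H replicate 4 (adjusted p = 0.068, 0.070 and 0.072), and those of Rpl9 and Rps4x also without replicate 5 (0.057 and 0.057). That of Rps4x was lost without replicate 6 as well (0.069). Without HFD replicate 1 all 3 were still called higher, where 9.27% of all tested genes were. The log2 fold changes without a library stayed above 0 in each case.

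A further 3 members had groups that did not overlap in the same direction without passing the test, and were chosen for mention after their values were seen. Rps3, at the entry of the messenger RNA channel, had a log2 fold change of 0.58 (SE 0.23, adjusted p = 0.094). Rpl41, the shortest protein of the ribosome, had a log2 fold change of 0.63 (SE 0.25, adjusted p = 0.099). Rpl5 measured 78.4, 170.5 and 165.3 CPM in HFD and 226.1, 203.7 and 211.4 CPM in HFD+Allantoin-H, with a log2 fold change of 0.63 (SE 0.27, adjusted p = 0.12). Rpl5 joins Rpl11 and 5S ribosomal RNA in the particle that also binds Mdm2 when ribosome assembly is disturbed. Rpl11 went the other way, at 352.7, 371.9 and 347.6 CPM against 219.3, 195.2 and 189.1 CPM, a log2 fold change of -0.83 (SE 0.15, adjusted p = 0.0074). Of the 17 tested core members with a positive fold change, 15 had their lowest level in HFD replicate 1, against 3 of the 60 with a negative one. A positive fold change by itself favours an HFD library as the lowest, and the share over all tested genes was not counted. HFD replicate 1 also had the highest mitochondrial share, and the part of that share in these values was not tested.

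The genes of the stalk, and 2 of the 3 most abundant members, did not pass the test. Levels are compared between genes per kb of annotated transcript, as CPM per kb. The highest mean levels over the 6 libraries were those of Rplp1, a protein of the acidic stalk that recruits elongation factors (619 CPM per kb), Rps18 (572 CPM per kb) and Rps2, a protein of the messenger RNA entry channel (522 CPM per kb). Rplp1 measured 295.3, 391.8 and 348.0 CPM in HFD and 306.0, 257.0 and 254.5 CPM in HFD+Allantoin-H, with overlapping groups and a log2 fold change of -0.34 (SE 0.17, adjusted p = 0.18). Rps2 measured 497.3, 597.8 and 565.4 CPM against 558.8, 499.7 and 404.8 CPM, a log2 fold change of -0.18 (SE 0.18, adjusted p = 0.49). The sign of both turned with scaling by library size alone (0.07 and 0.23) and with trends in transcript length and GC content removed (0.39 and 0.24). The other stalk genes, Rplp0 and Rplp2, had log2 fold changes of 0.40 (SE 0.22) and -0.09 (SE 0.18) and did not pass the test.

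Over the 77 core members the median level was 179 CPM per kb in HFD and 136 CPM per kb in HFD+Allantoin-H. The middle 80% of the genes spanned 64.0 to 420 CPM per kb in HFD and 46.6 to 312 CPM per kb in HFD+Allantoin-H. The lowest mean levels were those of Rpl13a (13.3 CPM per kb), Rpl24 (12.9 CPM per kb) and Rps10 (2.49 CPM per kb), although nearly all core proteins are present at equal numbers in the ribosome. Each of these 3 genes overlaps another annotated gene on the same strand that is listed at 0 counts: Gm45713 for Rpl13a, Gm28037 for Rpl24 and RPS10-NUDT3 for Rps10. Rpl36al, outside the core, also overlaps such a gene, Gm49383 (0 counts), and stood at 2.53 CPM per kb. Such an overlap did not go with a low level in every member, since Rpl19, which overlaps Gm11629 (2 counts), stood at 321 CPM per kb. Rpl21 and Rps15a, without such an overlap with a protein-coding gene or processed transcript, stood at 16.3 and 15.8 CPM per kb. Their annotated transcripts, of 1856 and 5179 bases, are long beside coding lengths of 480 and 390 bases, which lowers a value per kb. Rps15a had means of 84.2 CPM in HFD and 79.1 CPM in HFD+Allantoin-H. Rpl21 had 33.2 and 27.4 CPM, and its 56 matched pseudogenes held 57.4 and 36.4 CPM. These 2 genes are thus not a like comparison for the 3 lowest. How the counting treated reads in such overlaps is not given in the sources used here. Rpl13a still differed, at 18.0, 18.3 and 17.8 CPM in HFD and 10.2, 9.997 and 9.18 CPM in HFD+Allantoin-H, which gave a log2 fold change of -0.88 (SE 0.17, adjusted p = 0.0084), a call that was lost with scaling by library size alone (adjusted p = 0.11). Rpl24 measured 15.1, 8.99 and 11.6 CPM against 6.08, 3.73 and 7.02 CPM, a log2 fold change of -1.08 (SE 0.30, adjusted p = 0.032). The call of Rpl24 was lost under 7 of 19 alternatives, among them leaving out HFD replicate 1 (adjusted p = 0.086) or HFD+Allantoin-H replicate 4, 5 or 6 (0.088, 0.11 and 0.053).

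Of the 9 tested members outside the core, 4 were called lower and 0 higher, with a median log2 fold change of -0.63. Rps27l, a paralog of Rps27 that responds to p53, measured 273.3, 249.97 and 257.2 CPM in HFD and 163.0, 143.6 and 149.1 CPM in HFD+Allantoin-H, and fell by 0.78 on the log2 scale (SE 0.15, adjusted p = 0.0086). Rps27 itself measured 37.7, 45.4 and 41.1 CPM against 55.8, 47.6 and 30.7 CPM, with overlapping groups. Rps27rt is identical to Rps27 over the 341 aligned bases, so reads could be split between them, and their sum was 94.9 ± 20.0 CPM in HFD and 79.2 ± 9.03 CPM in HFD+Allantoin-H (SD, n = 3 each). Rps27rt alone had a log2 fold change of -0.63 (SE 0.27, adjusted p = 0.12). The call of Rps27l was lost under 4 of 19 alternatives, among them without HFD+Allantoin-H replicate 5 (adjusted p = 0.059).

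Rps19bp1 measured 25.9, 22.1 and 23.8 CPM in HFD and 10.996, 8.99 and 6.55 CPM in HFD+Allantoin-H, which gave a log2 fold change of -1.44 (SE 0.22, adjusted p = 0.0042), with groups well apart. Rpl10-ps3, annotated as protein-coding and identical to Rpl10 over 740 aligned bases, had a log2 fold change of -1.22 (SE 0.21, adjusted p = 0.0060), but at 12.8 and 5.50 CPM it held little beside Rpl10, whose means were 458 and 356 CPM and which was not called. Rpl22l1, the paralog that can replace Rpl22, had a log2 fold change of -0.51 (SE 0.16, adjusted p = 0.045), a call lost under 10 of 19 alternatives, among them leaving out each library in turn except HFD replicate 3. The close copies Rps12-ps3, Rpl9-ps6, Rpl36al and the Rpl7 relative Rpl7l1 had log2 fold changes of -0.52, 0.34, -0.96 and 0.18 and did not pass. Summing a copy with its parent left 94.4 ± 15.3 and 57.0 ± 13.4 CPM for Rps12 and 69.3 ± 20.2 and 131 ± 15.002 CPM for Rpl9 in HFD and HFD+Allantoin-H.

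Pseudogenes held part of the signal of the whole set. Aligning transcripts matched 580 annotated pseudogenes to 80 members, at 95% identity or more, and 355 of these held counts. Their counts made up 10.6%, 8.79% and 9.45% of the members' and pseudogenes' counts together in HFD and 8.19%, 7.99% and 7.87% in HFD+Allantoin-H, so the HFD shares were all higher. In Rpl17 the pseudogenes held more counts than the gene, with 248.8 ± 22.9 CPM in HFD and 148.1 ± 17.1 CPM in HFD+Allantoin-H in its 24 matched pseudogenes against 88.5 ± 6.14 and 47.6 ± 6.20 CPM in the gene (SD, n = 3 each). Adding each member's pseudogenes to it left 39 members called lower, of which 38 were called before, and 3 higher. Exons of 11 members overlap a gene of at least 100 counts on the opposite strand, among them Rpl28, Rpl31, Rpl35, Rps18, Rps25 and Rps28, and whether the counting used strand is not given in the sources used here.

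Short coding sequences went with lower values, in ribosomal and other genes alike. The median annotated transcript was 834 bases for the large and 791 bases for the small subunit, against 2817 bases over all tested genes. Among the shortest 10% of all tested genes, at 57 to 1020 bases, the log2 fold changes of the 62 members had a median of -0.61 and the other genes had a median of -0.60, with 48.4% and 32.9% called lower. Among the next 10% the 13 members had a median of -0.58 and the other genes had a median of -0.23, with 61.5% and 20.1% called lower. Measured by coding length, the core members were split by rank into 3 groups. The shortest group, 26 genes of 75 to 405 bases, had a median of -0.61 with 14 called lower and 0 higher. The middle group, 25 genes of 405 to 564 bases, had a median of -0.69 with 17 called lower and 0 higher. The longest group, 26 genes of 576 to 1257 bases, had a median of -0.13 with 4 called lower and 3 higher. Other tested genes of the same coding lengths had medians of -0.48, -0.26 and 0.00. Of these, 33.3%, 20.3% and 11.8% were called lower and 4.39%, 5.6% and 11.1% higher. The members thus lay furthest from genes of like length in the middle group, which was not tested.

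The subunits shared this pattern. In the large subunit 9 of 16, 11 of 14 and 4 of 16 genes were called lower from the shortest to the longest group, and in the small subunit 5 of 10, 6 of 11 and 0 of 10. Across the 77 core members the Spearman correlation of coding length with log2 fold change was 0.33, given as a description, since the points share the same 6 libraries. When smooth trends with length and GC content of the transcript were taken out of every library, 20 members were called lower and 11 higher, against 11.1% and 10.4% of all tested genes. Medians were then -0.16 for the large subunit, -0.04 for the small subunit and -0.04 over all tested genes. Removing the trend in coding length instead, a choice made after seeing the data, left 25 called lower and 5 higher, against 12.7% and 11.1% of all tested genes. Medians were then -0.30 for the large subunit, -0.15 for the small subunit and -0.04 over all tested genes. Transcript length was a property that moved with the result, and its part in the result cannot be told apart from that of the ribosomal genes' own change, since nearly all of them are short. Of the 25 named members that were called, 9 kept their call under every alternative run, among them Rpl27, Rpl28, Rpl31, Rpl35, Rpl35a, Rps18, Rps19bp1 and Rpl10-ps3.

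**Figure D4:**
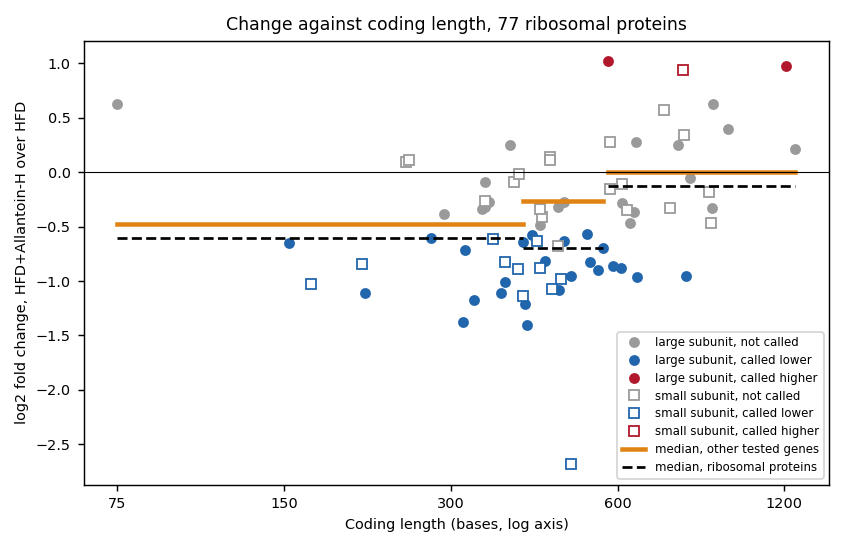
Log2 fold change of the 77 core ribosomal protein genes, HFD+Allantoin-H over HFD, against coding length in bases on a log axis, with large subunit genes as filled circles and small subunit genes as open squares, coloured by call. Dashed lines are the members' medians in each group of coding length (-0.61, -0.69 and -0.13) and orange lines those of the other tested genes in the same ranges (-0.48, -0.26 and 0.00).

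The sequence around the annotated start of transcription was read to see which members carry a pyrimidine run there. RefSeq start positions for GRCm38.p6 matched 66 of the 92 members, 57 of them core. The window was 30 bases long and began 10 bases before the start, on the gene's strand only. For any gene with several annotated starts, such as Rpl35a with 3, the window with the longest run was kept. A run of 7 or more bases that are all C or T was present in 30 of 57 core members (52.6%). Among all 27025 genes of the table it was present in 20.5%. The windows of 4 members that fell are shown because the run is plain in them, followed by those of the 2 members called higher that have an entry, with the longest run of C and T in capitals. The windows lie at chr16:33056472-33056501 (Rpl35a, plus strand), chr7:4792955-4792984 (Rpl28, plus strand), chr2:39005112-39005141 (Rpl35, minus strand), chr17:33955646-33955675 (Rps18, minus strand), chr5:65391412-65391441 (Rpl9, minus strand) and chrX:102189372-102189401 (Rps4x, minus strand).
Rpl35a: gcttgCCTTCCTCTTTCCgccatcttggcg
Rpl28: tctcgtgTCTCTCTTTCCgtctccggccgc
Rpl35: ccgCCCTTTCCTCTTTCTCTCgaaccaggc
Rps18: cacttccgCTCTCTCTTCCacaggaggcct
Rpl9: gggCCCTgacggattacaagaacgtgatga
Rps4x: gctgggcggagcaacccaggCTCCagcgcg
The runs of Rpl35a, Rpl28, Rpl35 and Rps18 were 13, 11, 18 and 11 bases long, and the longest in the windows of Rpl9 and Rps4x was 4 bases. As the first 4 windows were picked for their runs, the contrast among those shown is not a result. Rpl27, Rps15 and Rps28, also called lower, had longest runs of 5, 3 and 4 bases. Rpl15 and Rpl34, which were not called, had runs of 17 and 13 bases. For the 30 core members with a run the log2 fold changes had a median of -0.75, with 17 called lower and 0 higher. The 27 without a run had a median of -0.39, with 9 called lower and 2 higher. Among other tested genes the medians with and without a run were -0.01 and -0.02, with 11.98% and 12.7% called lower. Annotated starts can lie off the start used in liver, so a window without a run says only that these letters are not in it.

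Genes that work with the ribosome did not share a single direction. The counts below stand beside 13% of all tested genes called lower and 11.3% called higher. Among ribosomal proteins that the name rule leaves out, Fau, made as a fusion to a ubiquitin-like protein, had a log2 fold change of -0.38 (SE 0.19), and Rack1 had -0.08 (SE 0.17), and neither was called. Of 11 genes listed with the elongation factors 2 were called lower and 2 higher, with a median of 0.28. The list also holds genes that are not elongation factors, such as Tpt1, which is counted again among the TOP messenger RNAs below. Eef2, which moves the ribosome along the messenger RNA, rose from 723 ± 191 to 1427 ± 279 CPM (SD, n = 3 each), a log2 fold change of 0.98 (SE 0.25, adjusted p = 0.022). Tpt1, itself a TOP messenger RNA, fell from 1282 ± 86.6 to 722 ± 90.01 CPM, a log2 fold change of -0.83 (SE 0.17, adjusted p = 0.011), and Eef1d, an exchange factor for Eef1a, fell by 0.57 on the log2 scale (SE 0.16, adjusted p = 0.034). Of 45 initiation factor genes 6 were called lower and 8 higher, with a median of 0.10. Eif2s3x, a subunit of the factor that carries the initiator transfer RNA, rose by 1.65 on the log2 scale (SE 0.23), and Eif5b, which joins the subunits, and Eif1b had log2 fold changes of -1.31 (SE 0.23) and -0.83 (SE 0.16). Of 22 further TOP messenger RNAs outside the name rule 3 were called lower and 5 higher, with a median of 0.01, and Eif3l among them had a log2 fold change of 0.75 (SE 0.15).

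Lists tied to the making of ribosomes held more genes called lower than higher. The shares over all tested genes were 13% lower and 11.3% higher. For tested genes outside the members with transcripts of 57 to 1020 bases, 32.9% were called lower. The part of transcript length in the counts of these lists was not tested. Of the 20 genes of RNA polymerase I and its transcription of ribosomal DNA 7 were called lower and 0 higher, with a median of -0.48. The 3 with the smallest p, Polr2f, Polr2l and Polr2e, encode small subunits that all nuclear RNA polymerases share, with log2 fold changes of -1.39 (SE 0.19), -0.75 (SE 0.15) and -0.72 (SE 0.17). Of 8 tested noncoding host genes of small nucleolar RNAs 4 were called lower and 0 higher, with a median of -0.59, led by Snhg8 at -1.12 (SE 0.22), Snhg12 at -1.46 (SE 0.29) and Snhg1 at -1.02 (SE 0.20). Of 95 ribosome biogenesis genes 17 were called lower and 5 higher, with a median of -0.18. Nob1, the nuclease that finishes 18S ribosomal RNA, fell from 15.1 ± 1.92 to 6.21 ± 0.714 CPM, and Tsr3 and Ppan, both needed for subunit maturation, had log2 fold changes of -1.08 (SE 0.19) and -2.28 (SE 0.38).

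Genes that control the synthesis or translation of ribosomal proteins were called in both directions, as were 13% (lower) and 11.3% (higher) of all tested genes. Of 36 tested genes of mTORC1 and the control of TOP translation 3 were called lower and 6 higher, with a median of 0.07. Sesn3, an inhibitor of mTORC1, rose from 10.8 ± 0.809 to 24.3 ± 3.38 CPM, Pdcd4, an inhibitor of Eif4a, rose by 0.97 on the log2 scale (SE 0.19), and Larp4b, an RNA-binding protein, fell by 1.10 (SE 0.21). Of 12 transcription factors of ribosomal protein promoters Gabpa was called higher at 0.70 (SE 0.18) and Tbp lower at -0.91 (SE 0.28). Of 19 tested genes of ribosome stress and surveillance 6 were called lower and 2 higher, with a median of -0.20. Ascc3 and Ltn1, which act on stalled ribosomes, had log2 fold changes of 1.31 (SE 0.18) and 0.86 (SE 0.17), and the stress factor Ddit3 had -3.16 (SE 0.63), with an HFD mean of 43.7 ± 43.1 CPM in which the SD was nearly as large as the mean. Over all these lists together, from the ribosomal proteins outside the name rule to ribosome stress and each gene taken a single time, 46 genes were called lower and 24 higher. These counts were 15 and 7 without HFD+Allantoin-H replicate 4, 9 and 5 without replicate 5, and 22 and 13 without replicate 6. In the same order, the shares of all tested genes called lower and higher were 5.29% and 4.51%, 4.27% and 3.48%, and 6.29% and 5.31%.

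Markers of other cell types differed between the groups. Summed markers of macrophages, 8 genes, ranged from 110 to 262 CPM in HFD and from 305 to 343 CPM in HFD+Allantoin-H, with 3 called higher. Those of stellate cells and fibroblasts, 9 genes, ranged from 152 to 219 and from 321 to 397 CPM, with 5 called higher. Lymphocyte markers, 14 genes, summed to 27.8 to 67.1 CPM in HFD and 15.6 to 29.5 CPM in HFD+Allantoin-H, with 1 of 8 tested called lower. Hepatocyte markers, 12 genes, summed to 97099 to 97362 CPM and 78970 to 107943 CPM, with 2 called higher and 3 lower, so the defining genes of the labelled tissue were high in all libraries. In the lists for erythroid, neutrophil, endothelial, adipocyte, pancreatic acinar and cycling cells 7, 2, 8, 3, 1 and 6 genes were tested. Of these 0 were called at an adjusted p under 0.05 by edgeR, and of 3 tested cholangiocyte genes 1 was called lower. Adipoq, Plin1, Retn and Lep, high in HFD replicate 2, did not pass the filter, so the calls say nothing about them. No marker of the macrophage, stellate, lymphocyte or hepatocyte lists was at 0 in all libraries. The part of cell composition in the ribosomal protein values was not tested.

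**Figure D5:**
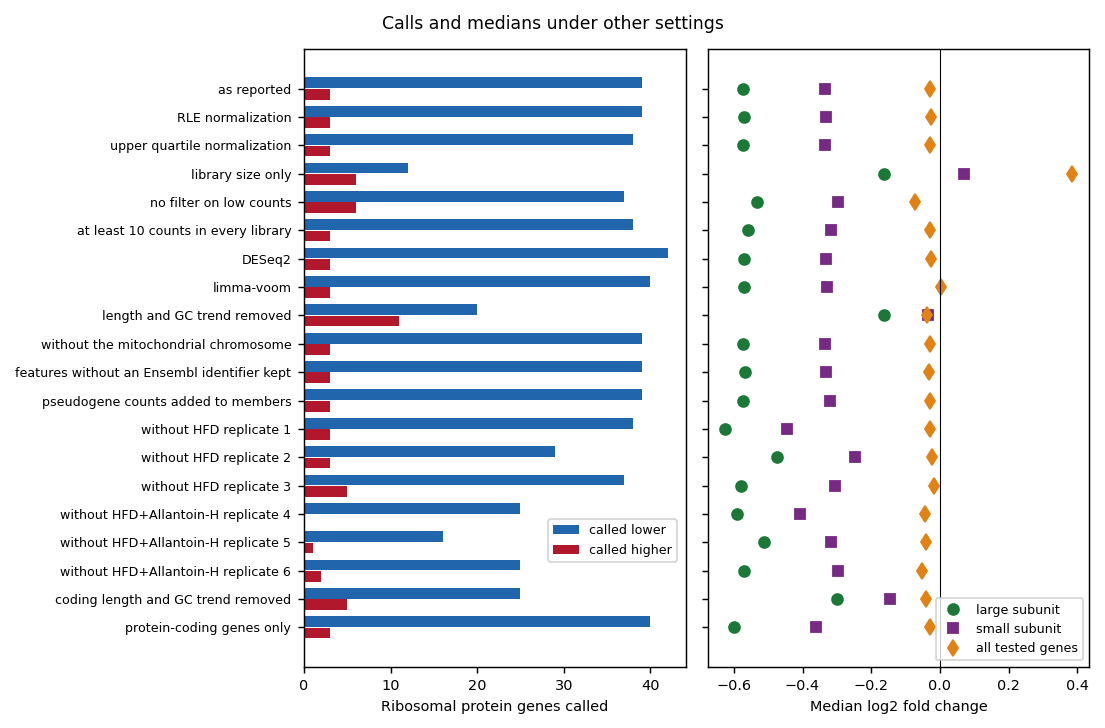
Number of ribosomal protein genes called lower and higher (left) and median log2 fold change of the large subunit, the small subunit and all tested genes (right) as reported and under 19 other settings. The count called lower ranges from 12 with library size only to 42 with DESeq2, and the large subunit's median stays below that of all tested genes in every setting. The small subunit's median does not, since with trends in length and GC content removed it lies close to that of all tested genes (-0.038).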

How the data were processed

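The authors deposited a table of gene counts, whole reads per Ensembl gene, for 6 libraries of total liver RNA prepared with a SMARTer mRNA kit. Their processing notes name the builds GRCm38 and mm10. The aligner, the counter and its handling of strand and multiply mapped reads are not given in the sources used here. Library totals over features with an Ensembl identifier were 11304059 to 14562848 counts. Features without an identifier held 0.197% to 0.306% of all deposited counts and were left out. Identifiers were named from GENCODE M21. Each gene's length is that of 1 principal transcript, matched to RefSeq where possible.

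Counts were filtered with filterByExpr, scaled by TMM and fitted with group alone by edgeR 4.0.16 (R 4.3.3, quasi-likelihood, two-sided, Benjamini-Hochberg over all tested genes, called at an adjusted p under 0.05). CPM are TMM-scaled. The script was tested on simulated data. Alternatives used DESeq2 1.42.0, limma 3.58.1, other scalings and filters, natural splines of 5 df in length and GC content, pseudogene counts added (BLAST 2.17.0, identity of at least 95% over 200 bases or over the whole transcript where shorter), and each library left out. The settings with coding length and with protein-coding genes only were added after seeing the data.

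The members and lists were chosen with earlier results of these data known, so counts over them are descriptions. Named members were the 8 genes of each subunit with the smallest p, every member called higher, all tested paralogs and other members outside the core, and the 3 highest and 3 lowest by CPM per kb. For each other list the 3 called genes with the smallest p were named. Start windows came from RefSeq on GRCm38.p6. Some genes that these rules name are not reported here by name or value, while counts and medians include them.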

Additional observations from a re-analysis of the deposited data

How the results depend on the processing

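With 3 mice a group, the calls rest on few degrees of freedom, and counts moved more with single libraries than with the tool. No paired analysis was possible because the groups share no replicate number. With library size as the only scaling, 12 members were called lower and 6 higher, with medians of -0.083 for the members, -0.16 for the large subunit and 0.070, a turned sign, for the small subunit. The log2 fold changes of Rplp1 and Rps2 turned to 0.066 and 0.23 there. The translation lists together, with 46 called lower, 24 higher and a median of -0.15, went to 12, 49 and 0.26, where 5.27% of all tested genes were called lower and 24.7% higher. With trends in transcript length and GC content removed, 20 members were called lower and 11 higher. Medians were -0.13, -0.16 and -0.035 in the same order, against -0.038 over all tested genes, and Rplp1 (0.39), Rps2 (0.24) and Rps12-ps3 (0.037) turned. With coding length in place of transcript length the values were 25, 5, -0.28, -0.30 and -0.15, and Rplp1 was 0.22. With no filter on low counts 6 members were called higher, against 7.71% of all tested genes. At an adjusted p under 0.01, 22 were called lower and 0 higher by edgeR.

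Leaving out 1 library at a time gave 16 to 38 members called lower and 0 to 5 called higher, members' medians of -0.54 to -0.44, large subunit medians of -0.63 to -0.47 and small subunit medians of -0.45 to -0.25. For the translation lists it gave 9 to 47 called lower, 5 to 33 called higher and medians of -0.22 to -0.021. In these runs 4.27% to 15.2% of all tested genes were called lower and 3.48% to 13.4% higher. Of the 606 values of named members 547 kept direction and side of the threshold, 51 lost the call, 2 gained it and 6 turned sign. The cause was not tested.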
